A study of Mus musculus with 9 samples.

Results

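Potassium channels let potassium leave or enter cells, and so set the resting voltage and shape of the action potential. The genes described are the mouse genes that encode these channels and their accessory subunits, taken as every protein-coding gene whose symbol starts with Kcn, without antisense genes and without Kcnq1ot1. The rule found 94 genes among the 37224 of the counts table, in 16 family groups. They were measured by RNA sequencing in 9 mouse libraries, 3 in each of 3 groups, all labelled C57BL/6. The iGABA group was made of embryonic fibroblasts, at passage P0, taken through 14 days in vitro of conversion toward GABAergic interneurons, the first 2 days in fibroblast medium and the rest in neuronal medium, and sorted for GFP. The GAD67 group was made of primary interneurons of E18.5 cortex (embryonic day), sorted for GFP, which the design text describes as GAD67-GFP+. The MEF group was made of primary mouse embryonic fibroblasts (E13.5) at passage P0, detached with trypsin and not sorted. Whether the fibroblasts had been moved to inducing medium by the time RNA was taken is left unsaid in the labels, which mention such a shift. They give no cell line or clone for the conversion and do not say whether the 3 libraries of a group came from separate cultures or animals, so p-values measure the spread between these libraries, which may be technical.

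Voltage-gated channels (Kcna, Kcnb, Kcnc, Kcnd, Kcnh, Kcnq) open on depolarisation and end or pace action potentials. Calcium- and sodium-activated channels (Kcnma, Kcnn, Kcnt) link firing to the ions that enter with it. Inward rectifiers (Kcnj) and two-pore channels (Kcnk) carry current near rest. Accessory subunits (Kcnab, Kcnip, Kcne, Kcnmb) and silent subunits (Kcnf, Kcng, Kcns, Kcnv) change the channels they join. Mature fast-spiking cortical interneurons are known for Kv3 channels, the Kcnc family, which allow brief spikes.

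Library totals ran between 27501521 and 38975523 counts. Levels are given as normalised CPM (counts scaled to the library total times edgeR's TMM factor), and levels of different genes were compared only as TPM, which also divide by exon length. A gene was called when edgeR's quasi-likelihood test gave a Benjamini-Hochberg adjusted p under 0.05 over the 18085 genes tested. Correlations of log2 CPM between libraries of one group lay between 0.989 and 0.995, against 0.629 to 0.807 between libraries of different groups. Among the checks of the labels, the summed level of 6 GABAergic interneuron markers was 613 to 624 normalised CPM in iGABA, 3834 to 3980 in GAD67 and 6.64 to 7.70 in MEF. That of 8 fibroblast markers was 707 to 997 in iGABA, 124 to 132 in GAD67 and 75851 to 84258 in MEF, so interneuron markers were lower and fibroblast markers higher in iGABA than in GAD67. Of the 6 interneuron markers, all lower in iGABA than in GAD67, Gad1 alone averaged 405 in iGABA. Gad2 averaged 9.44 in iGABA and 514 in GAD67. Lhx6, another of the 6, averaged 75.5 in iGABA. It is known among the factors delivered in this kind of conversion, and whether its iGABA reads came from a delivered gene was not tested. In RNA of many cells, fewer expressing cells and less RNA per cell cannot be told apart.

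The iGABA libraries held the most potassium channel RNA, and GAD67 had the most channel genes at a mean of at least 1 normalised CPM. The summed level of the 94 genes was 1925 ± 33.1 normalised CPM in iGABA, 1429.6 ± 37.2 in GAD67 and 334 ± 9.36 in MEF (SD, n = 3 each), with no overlap between groups. A mean of at least 1 normalised CPM was reached by 39 genes in iGABA, 55 in GAD67 and 36 in MEF, and a mean of at least 100 by 7 genes in iGABA, 3 in GAD67 and 0 in MEF. At least 10 was reached by 24, 26 and 11 genes. Summed markers of glutamatergic cortical neurons were 1.74 to 1.94 normalised CPM in iGABA, 31.8 to 52.1 in GAD67 and 1.97 to 2.34 in MEF. Those of astrocytes and radial glia were 12.3 to 15.3 in iGABA, 75.0 to 79.6 in GAD67 and 46.8 to 51.9 in MEF. The part of such cells in these gene counts was not tested. Of the 76 tested genes, 24 had their highest mean in iGABA (31.6%, against 26.4% of all tested genes), 35 in GAD67 (46.1%, against 36.7%) and 17 in MEF (22.4%, against 36.8%). Per length, the highest in iGABA were Kcnc1 at 179 ± 9.57 TPM, Kcnab3 at 147 ± 7.03 TPM, Kcnt1 at 138 ± 3.34 TPM and Kcnip3 at 110.1 ± 4.40 TPM. In GAD67 they were among others Kcnh4 at 75.8 ± 3.997 TPM, Kcnc1 at 49.6 ± 2.33 TPM and Kcnd3 at 46.1 ± 0.470 TPM. In MEF they were Kcne4 at 28.0 ± 0.989 TPM, Kcnk2 at 23.0 ± 1.0 TPM and Kcns1 at 14.9 ± 0.492 TPM. Neither Kcnc1 nor Kcnt1 of the iGABA leaders passed 1 TPM in MEF.

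**Figure D1:**
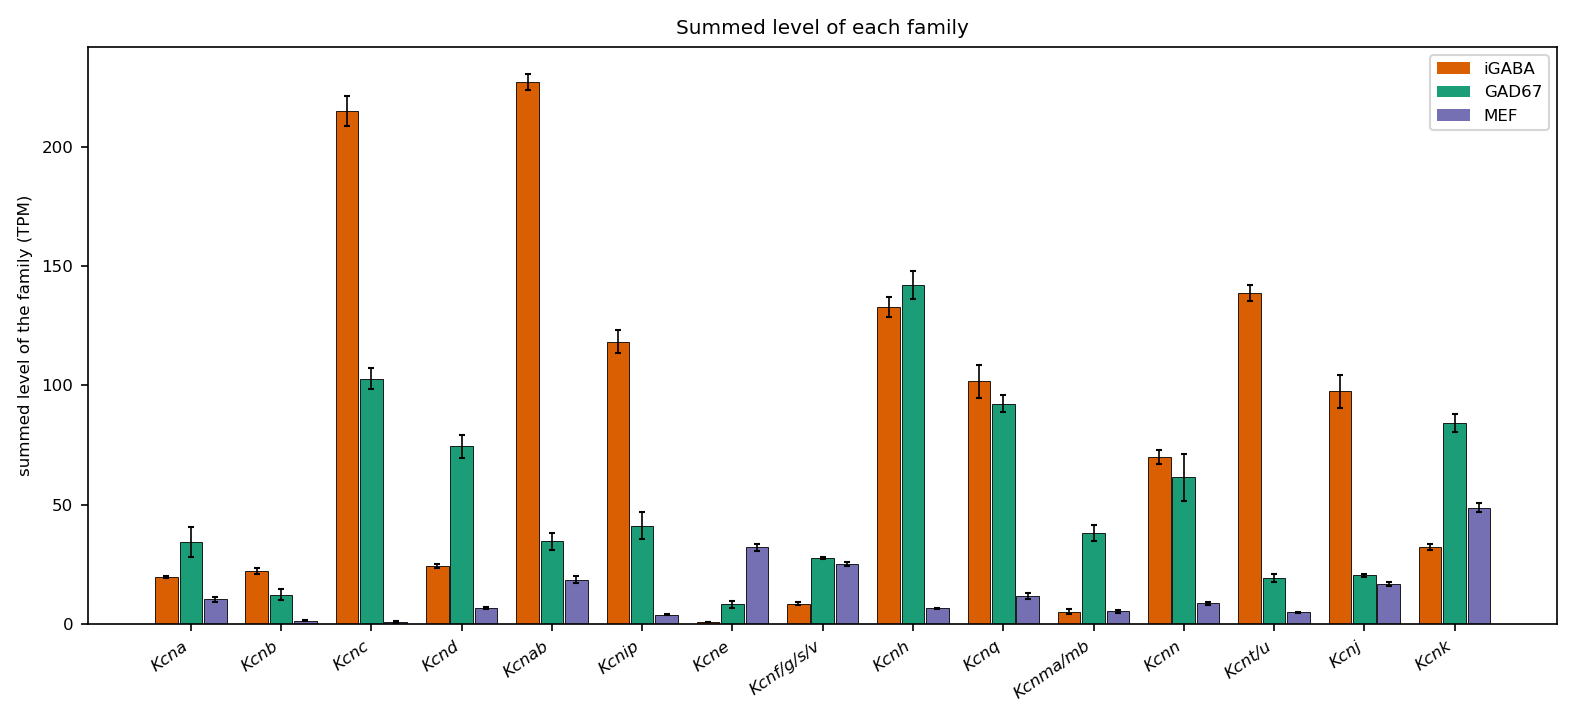
Summed TPM of each potassium channel family (vertical axis) in iGABA, GAD67 and MEF, left to right within a family; bars are means of 3 libraries and whiskers the SD. The Kcnc and Kcnab sums were highest in iGABA at 215 ± 6.30 and 227 ± 3.32 TPM, while the Kcnd and Kcnk sums were highest in GAD67 at 74.4 ± 4.78 and 84.2 ± 3.73 TPM.

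Of the 94 genes, 76 had enough counts to be tested. The other 18 had at most 79 counts over all 9 libraries, and 4 of them (Kcna10, Kcnj1, Kcnk16 and Kcnmb3) had none. Between iGABA and MEF, 43 of the 76 were higher in iGABA, where 42.1% of all tested genes were higher, and 22 were lower, where 39.7% of all were lower. Over all genes 81.9% were called, so a call alone says little about the list. At least 2-fold higher were 38 of the 76, against 23.9% of all, and at least 2-fold lower were 22, against 23.8%. Libraries of iGABA and MEF did not overlap for 68 of the 76, against 84.9% of all. At least 16-fold higher in iGABA were 25 of the 76, against 5.53% of all tested genes, and at least 16-fold lower were 14, against 6.83%. The median absolute log2 difference was 4.03 in the list and 0.97 over all tested genes, and the median signed difference was 1.39 in the list (1.04 with genes at 0 counts in one group at their bound) and 0.05 over all.

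Between GAD67 and MEF, 50 of the 76 were higher in GAD67, where 43.1% of all tested genes were higher, and 22 were lower, where 43.8% were lower. In either direction 86.9% of all genes were called. At least 2-fold higher were 48, against 28.5% of all, and at least 2-fold lower were 19, against 31.6%. Libraries of GAD67 and MEF did not overlap for 72 of the 76, against 87.0% of all. At least 16-fold higher were 29, against 7.01% of all, and at least 16-fold lower were 8, against 12.2%. The median log2 difference was 2.54 in the list (2.43 with genes at their bound) and 0.00 over all. Both comparisons use the same 3 MEF libraries. A mean of at least 10 normalised CPM together with a mean under 1 in MEF was found for 10 genes in iGABA (among them Kcnc1, Kcnd3, Kcnh3, Kcnh4, Kcnj5, Kcnj12, Kcnn3 and Kcnt1), where 1.75% of all tested genes met it. For GAD67 it was 11 genes (among them Kcna3, Kcnc1, Kcnc2, Kcnd3, Kcnh4, Kcnh7, Kcnk10, Kcns2 and Kcnt1), against 2.19% of all. The reverse, at least 10 in MEF and under 1 in iGABA, held for 5 genes (Kcne4, Kcnj2, Kcnk6, Kcns1 and Kcnt2), against 1.99% of all.

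Between iGABA and GAD67, 27 of the 76 were higher in iGABA, where 41.3% of all tested genes were higher, and 41 were lower, where 39.3% were lower. In either direction 80.6% of all genes were called. At least 2-fold higher were 26, against 26.6% of all, and at least 2-fold lower were 35, against 20.0%. Libraries of iGABA and GAD67 did not overlap for 68 of the 76, against 82.3% of all. At least 16-fold lower in iGABA were 16, against 3.68% of all, and at least 16-fold higher were 7, against 7.07%. The median log2 difference was −0.81 in the list and 0.02 over all. With scaling by library size alone, the median log2 difference of all genes became 0.46 between iGABA and MEF, 0.22 between GAD67 and MEF and 0.22 between iGABA and GAD67, so single differences of that size depend on the scaling.

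**Figure D2:**
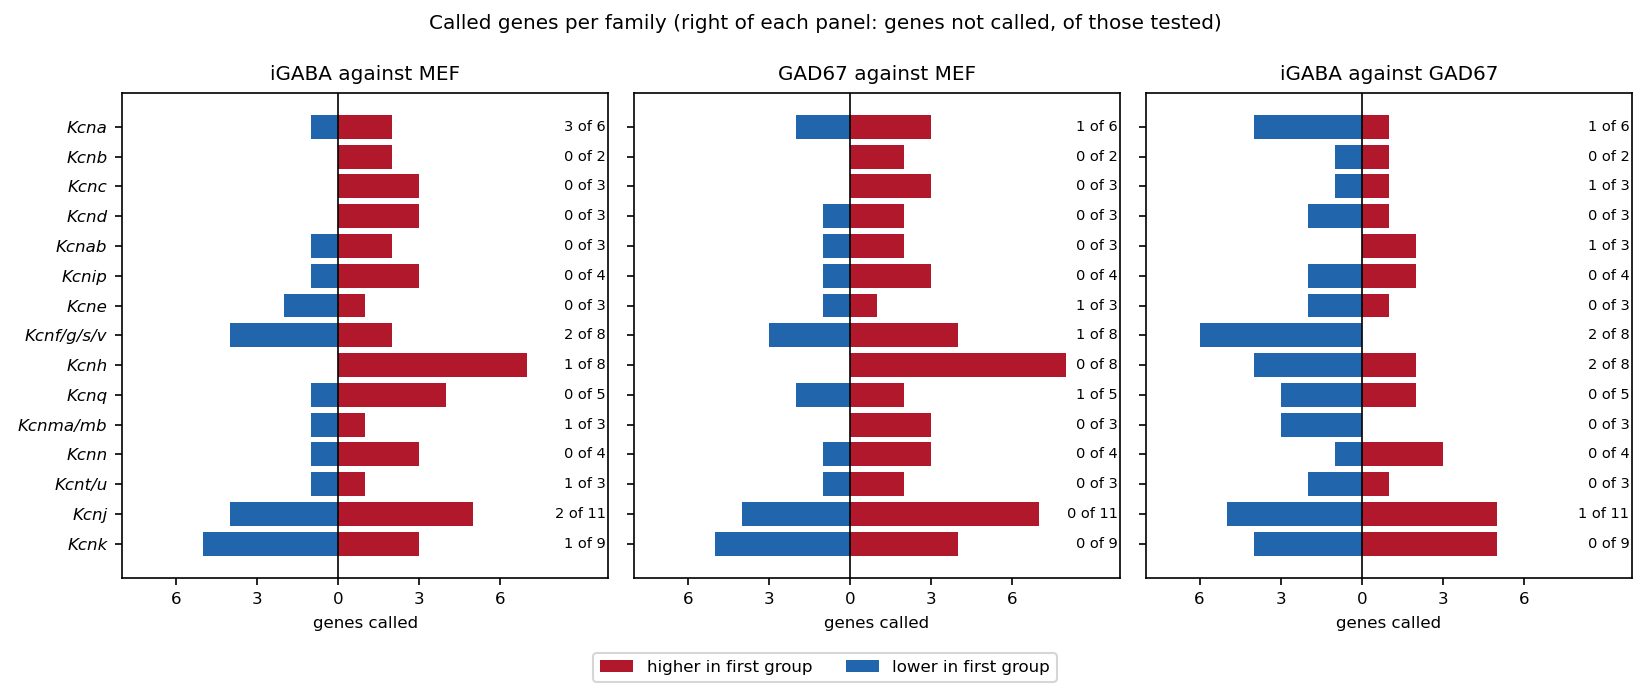
Number of genes of each family called higher (right of 0) or lower (left of 0) in the first-named group, for iGABA against MEF, GAD67 against MEF and iGABA against GAD67; the figures at the right edge give the genes not called, of those tested. All 8 Kcnh genes were higher in GAD67 than in MEF, and no Kcnf, Kcng, Kcns or Kcnv gene was higher in iGABA than in GAD67.

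The Kcnc family encodes the Kv3 pore subunits. Its summed level was 215 ± 6.30 TPM in iGABA, 103 ± 4.38 TPM in GAD67 and 0.830 ± 0.357 TPM in MEF, and its 3 tested genes were each higher in iGABA and in GAD67 than in MEF. Kcnc1 (Kv3.1; chr7:46396497-46438375 on the plus strand, GRCm38) had 491, 485 and 525 normalised CPM in iGABA, 143, 131 and 136 in GAD67 and 0.878, 0.921 and 0.453 in MEF. The groups did not overlap, and Kcnc1 was 674-fold higher in iGABA than in MEF (log2 fold change 9.40 ± 0.13, adjusted p = 5.16e-15), 184-fold higher in GAD67 than in MEF and 3.66-fold higher in iGABA than in GAD67 (log2 fold change 1.87 ± 0.08, adjusted p = 8.98e-11; here and below ± after a log2 fold change is its SE, n = 3 libraries a group in edgeR's test). Kcnc2 (Kv3.2; chr10:112271123-112466304, plus strand) ran the other way from Kcnc1 between the neuron groups, with 1.21, 1.504 and 1.22 normalised CPM in iGABA, 40.6, 38.9 and 38.8 in GAD67 and 1.17, 0.658 and 0.725 in MEF. It was 29.8-fold lower in iGABA than in GAD67 (log2 fold change -4.90 ± 0.14, adjusted p = 2.13e-12). Against MEF its difference in iGABA was 0.65 on the log2 scale, adjusted p = 0.0107, and missed the threshold without MEF replicate 2 (0.49, adjusted p = 0.0541) or MEF replicate 3 (0.54, adjusted p = 0.0507). Kcnc1 thus made up 83.3% of the family's TPM in iGABA and 48.3% in GAD67.

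Kv4 channels, encoded by Kcnd1 to Kcnd3, carry the fast A-type current below spike threshold. Their sum was 24.3 ± 0.773 TPM in iGABA, 74.4 ± 4.78 TPM in GAD67 and 6.63 ± 0.330 TPM in MEF. Kcnd3 (Kv4.3; chr3:105452330-105674002, plus strand) had 28.6, 29.2 and 29.3 normalised CPM in iGABA, 132, 134 and 134 in GAD67 and 0.695, 1.25 and 0.755 in MEF. The groups stood well apart, with Kcnd3 32.0-fold higher in iGABA than in MEF and 4.59-fold lower in iGABA than in GAD67 (log2 fold change -2.20 ± 0.07, adjusted p = 1.16e-11). Kcnd2 (Kv4.2) averaged 10.4 normalised CPM in iGABA, 38.7 in GAD67 and 3.97 in MEF, and was 3.72-fold lower in iGABA than in GAD67. Kcnd1 (Kv4.1), the highest Kv4 gene of MEF, had 12.6, 11.7 and 13.6 normalised CPM in iGABA, 6.08, 5.57 and 4.63 in GAD67 and 9.44, 10.2 and 10.3 in MEF. It was 2.32-fold higher in iGABA than in GAD67 (log2 fold change 1.21 ± 0.12, adjusted p = 5.42e-07). Against MEF its iGABA difference was 0.33, adjusted p = 0.0150, and missed the threshold without MEF replicate 1 (0.30, adjusted p = 0.0579) or iGABA replicate 6 (0.29, adjusted p = 0.0586).

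The DNA before the start of several genes is shown next. RefSeq (GRCm38.p6) start sites were at hand for 69 of the 94 genes, in 94 windows, and the 250 bases before the start had a median GC content of 58.6%, against 52.4% over all 32851 windows. Shown are a gene high in iGABA and GAD67 (Kcnc1, chr7:46396218-46396467, plus strand), the Kv4 gene highest in GAD67 (Kcnd3, chr3:105451640-105451889, plus strand) and 2 inward rectifier genes whose levels, given below, were high in iGABA (Kcnj12, chr11:61065554-61065803, plus strand, and Kcnj5, chr9:32344345-32344594, minus strand), each 5′ to 3′ on the gene's strand with CG pairs in capitals.
Kcnc1: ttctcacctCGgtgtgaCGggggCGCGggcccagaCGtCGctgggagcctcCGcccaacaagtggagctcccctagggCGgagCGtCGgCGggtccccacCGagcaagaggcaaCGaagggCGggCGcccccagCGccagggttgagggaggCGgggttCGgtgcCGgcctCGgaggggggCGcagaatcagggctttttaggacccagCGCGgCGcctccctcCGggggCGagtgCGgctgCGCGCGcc
Kcnd3: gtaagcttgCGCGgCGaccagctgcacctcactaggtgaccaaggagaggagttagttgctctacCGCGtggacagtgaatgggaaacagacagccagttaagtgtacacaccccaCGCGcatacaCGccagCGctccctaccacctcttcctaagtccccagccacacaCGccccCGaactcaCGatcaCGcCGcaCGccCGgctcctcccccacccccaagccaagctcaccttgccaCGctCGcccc
Kcnj12: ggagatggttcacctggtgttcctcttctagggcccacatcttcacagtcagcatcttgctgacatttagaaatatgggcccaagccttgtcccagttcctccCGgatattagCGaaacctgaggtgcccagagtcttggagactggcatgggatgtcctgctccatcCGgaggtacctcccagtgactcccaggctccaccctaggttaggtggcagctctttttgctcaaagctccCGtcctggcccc
Kcnj5: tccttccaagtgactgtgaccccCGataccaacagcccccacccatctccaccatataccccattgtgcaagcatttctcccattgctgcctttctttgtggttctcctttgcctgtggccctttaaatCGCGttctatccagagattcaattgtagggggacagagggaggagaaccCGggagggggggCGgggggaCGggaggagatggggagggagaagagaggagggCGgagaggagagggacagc
The Kcnc1 window held 30 CG pairs and the Kcnd3 window 18, while Kcnj5 had 7 and Kcnj12 had 4. The 4 genes were picked by hand, and the Kcnj12 window lies before a RefSeq start inside the gene as deposited with the counts (chr11:61022564-61071131), so its count is not one for the gene's first start. SOX and homeodomain proteins (Sox2, Dlx5 and Lhx6) are known among the factors delivered in this kind of conversion, and their core letters were searched on both strands. The SOX core ACAAAG was found in 10 of the 94 windows (10.6%, against 16.5% of all), among them Kcnj5, and the homeodomain core TAATTA in 0 (4.84% of all). E-boxes (CANNTG) were in 63 windows (67.0%, against 66.2%), and the TATA core TATAAA in 3 (3.19%, against 12.4%). The left part of the RE1 element bound by REST, TTCAGCACC, was in 1 window (Kcnh6; 1.06%, against 0.301% of all) and its right part in 0 (0.420% of all). A match describes letters and not binding.

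Kcna genes encode Kv1 subunits, which sit along axons and raise the spike threshold. The family's highest gene was Kcna6 (Kv1.6) in iGABA and MEF and Kcna3 (Kv1.3) in GAD67. Kcna6 had 30.8, 29.8 and 30.2 normalised CPM in iGABA, 14.6, 15.8 and 13.0 in GAD67 and 19.3, 21.2 and 19.6 in MEF, and was 2.09-fold higher in iGABA than in GAD67 (log2 fold change 1.07 ± 0.08, adjusted p = 5.20e-08). Kcna3 (chr3:107036162-107038129, plus strand) had 0.791, 0.979 and 0.750 normalised CPM in iGABA, 14.7, 14.4 and 9.74 in GAD67 and 0.549, 0.724 and 0.242 in MEF. GAD67 replicate 9 was the lowest of its group and still far above every iGABA and MEF library, and Kcna3 was 15.2-fold lower in iGABA than in GAD67 (log2 fold change -3.93 ± 0.24, adjusted p = 6.25e-09). Kcna1 (Kv1.1), a subunit of mature axons, averaged 0.0713 normalised CPM in iGABA, 0.718 in GAD67 and 3.43 in MEF, highest in the fibroblasts, and fell 46.5-fold in iGABA relative to MEF. Kcna2 (Kv1.2) averaged 0.862 normalised CPM in iGABA, 1.68 in GAD67 and 0.0430 in MEF. Kcna5 (Kv1.5), described in heart and smooth muscle, averaged 0.0431 normalised CPM in iGABA, 1.32 in GAD67 and 0.103 in MEF. Over the 6 tested Kcna genes, 1 was higher and 4 lower in iGABA than in GAD67 (all genes 41.3% and 39.3%), and 2 were higher and 1 lower in iGABA than in MEF (all genes 42.1% and 39.7%).

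Kcnb genes encode the Kv2 delayed rectifiers of neuronal cell bodies. Kcnb2 (Kv2.2) averaged 0.912 normalised CPM in iGABA, 5.64 in GAD67 and 0.457 in MEF, and was 6.10-fold lower in iGABA than in GAD67. Of the Kcnb2 exon bases 34.9% are shared with a same-strand gene known only by its identifier (ENSMUSG00000090498), so its reads are uncertain.

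The silent subunits of the Kcnf, Kcng, Kcns and Kcnv families make no channel alone and modify Kv2. Of 8 tested, 0 were higher and 6 lower in iGABA than in GAD67 (all genes 41.3% and 39.3%), while 2 were higher and 4 lower in iGABA than in MEF (all genes 42.1% and 39.7%), the second split lying near those shares. Kcns2 (Kv9.2; chr15:34837381-34842337, plus strand) had 0.0742, 0.0239 and 0.0313 normalised CPM in iGABA, 14.6, 12.7 and 19.4 in GAD67 and 0, 0 and 0 in MEF. It had 0 counts in MEF, stood in GAD67 at least 469-fold above MEF (3 counts over the group as floor, counting error only) and 329-fold lower in iGABA than in GAD67 (log2 fold change -8.36 ± 0.33, adjusted p = 9.73e-10; -8.98 without iGABA replicate 4). The fibroblast side held Kcns1 (Kv9.1), with 0.124, 0.0478 and 0.0625 normalised CPM in iGABA, 0.153, 0.292 and 0.169 in GAD67 and 15.6, 17.5 and 17.2 in MEF, and it was 204-fold lower in iGABA than in MEF (log2 fold change -7.67 ± 0.24, adjusted p = 5.15e-12). Kcns3 (Kv9.3), a subunit described in cortical fast-spiking interneurons, had 0.0247, 0.0239 and 0.0313 normalised CPM in iGABA, 2.07, 2.97 and 1.19 in GAD67 and 7.91, 9.57 and 9.48 in MEF. Its iGABA total of 3 counts put it 344-fold lower than in MEF (95% counting interval 117 to 1673) and 79.7-fold lower than in GAD67 (26.9 to 389). Kcnf1 (Kv5.1) and Kcng2 (Kv6.2) were not called between iGABA and GAD67. Kcnf1 had 11.5, 11.01 and 12.2 normalised CPM in iGABA, 12.1, 11.2 and 10.502 in GAD67 and 4.58, 4.64 and 4.05 in MEF. Its iGABA and GAD67 libraries overlapped (log2 difference 0.03, 95% interval -0.18 to 0.25), and both groups were above MEF, by 2.61-fold in iGABA and 2.56-fold in GAD67. Kcnf1 made up 93.3% of the silent-subunit TPM in iGABA.

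Accessory subunits of Kv1 and Kv4 were among the most abundant members in iGABA. The Kvβ genes Kcnab1 to Kcnab3 encode cytoplasmic partners of Kv1, and their sum was 227 ± 3.32 TPM in iGABA, 34.6 ± 3.68 TPM in GAD67 and 18.4 ± 1.47 TPM in MEF. Kcnab3 (chr11:69326258-69333042, plus strand) had 128, 137 and 122 normalised CPM in iGABA, 16.04, 16.2 and 13.9 in GAD67 and 4.06, 2.76 and 3.50 in MEF. It was 37.7-fold higher in iGABA than in MEF (log2 fold change 5.24 ± 0.11, adjusted p = 1.78e-13) and 8.40-fold higher than in GAD67 (log2 fold change 3.07 ± 0.09, adjusted p = 4.15e-12). An antisense gene, Kcnab3os, shares 5.13% of its exon bases and averaged 0.349 normalised CPM in iGABA, 0.487 in GAD67 and 0.135 in MEF. Kcnab2 averaged 134 ± 4.06 normalised CPM in iGABA, 26.7 ± 3.32 in GAD67 and 8.11 ± 1.11 in MEF, and was 5.04-fold higher in iGABA than in GAD67. Kcnab1 went the other way against the fibroblasts, with 3.17, 1.53 and 3.66 normalised CPM in iGABA, 2.27, 3.47 and 1.38 in GAD67 and 40.8, 40.0 and 47.8 in MEF. It was 15.6-fold lower in iGABA and 17.9-fold lower in GAD67 than in MEF, and its iGABA and GAD67 libraries overlapped.

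KChIPs, the calcium-binding Kcnip proteins, carry Kv4 channels to the membrane. Kcnip3, which is also described as the transcriptional repressor DREAM, led the family in every group and had 118, 117 and 124 normalised CPM in iGABA, 19.7, 20.9 and 18.9 in GAD67 and 4.03, 3.52 and 3.23 in MEF. It was 33.4-fold higher in iGABA than in MEF (log2 fold change 5.06 ± 0.08, adjusted p = 1.71e-14) and 6.03-fold higher than in GAD67 (log2 fold change 2.59 ± 0.07, adjusted p = 8.58e-13). Kcnip1, a KChIP of interneurons, averaged 10.6 normalised CPM in iGABA, 28.4 in GAD67 and 1.08 in MEF, and was 2.68-fold lower in iGABA than in GAD67. Kcnip2 averaged 2.29 normalised CPM in iGABA, 7.59 in GAD67 and 0.277 in MEF, and was 3.34-fold lower in iGABA than in GAD67. The Kv4 pores Kcnd2 and Kcnd3 were thus lower and Kcnip3 higher in iGABA than in GAD67. Kcne genes encode single-pass subunits that join several channels. Kcne4, an inhibitory subunit, had 0.346, 0.525 and 0.594 normalised CPM in iGABA, 0.128, 0.186 and 0.311 in GAD67 and 28.1, 27.9 and 30.1 in MEF, and was 59.1-fold lower in iGABA and 138-fold lower in GAD67 than in MEF (log2 fold change -5.88 ± 0.17, adjusted p = 3.40e-12 for iGABA). Kcne1l (Kcne5) had 0.0495, 0 and 0.0313 normalised CPM in iGABA, 3.06, 3.34 and 2.60 in GAD67 and 2.31, 2.43 and 3.20 in MEF, and its 3 counts in iGABA made it 115-fold lower than in GAD67 (95% counting interval 38.9 to 559).

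Kcnh genes encode the EAG, ERG and ELK channels, which act near the spike threshold. All 8 were tested, 7 were higher in iGABA than in MEF (all genes 42.1%) and 8 were higher in GAD67 than in MEF (all genes 43.1%), and none was lower in either. Kcnh2 (ERG1) was the most abundant in iGABA, with 121, 124 and 127 normalised CPM in iGABA, 56.4, 63.5 and 45.002 in GAD67 and 12.5, 11.5 and 12.8 in MEF. It was 10.1-fold higher in iGABA than in MEF (log2 fold change 3.33 ± 0.11, adjusted p = 1.02e-11) and 2.25-fold higher than in GAD67. Kcnh4 (ELK1; chr11:100740376-100759942, minus strand) led in GAD67, with 17.6, 19.5 and 18.7 normalised CPM in iGABA, 93.9, 85.3 and 91.6 in GAD67 and 0, 0.0987 and 0.121 in MEF. Against MEF it was 231-fold higher in iGABA and 1121-fold higher in GAD67, and it was 4.86-fold lower in iGABA than in GAD67 (log2 fold change -2.28 ± 0.09, adjusted p = 3.39e-11). Kcnh3 (ELK2) had 24.2, 25.1 and 25.04 normalised CPM in iGABA, 9.17, 9.49 and 6.92 in GAD67 and 0, 0 and 0.0302 in MEF. The single MEF count put iGABA 2249.9-fold above MEF (95% counting interval 403 to 88899), and Kcnh3 was 2.90-fold higher in iGABA than in GAD67.

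Kcnh7 (ERG3; chr2:62693414-63184287, minus strand) stood above 1 in the GAD67 libraries and in no other, with 0.124, 0.263 and 0.219 normalised CPM in iGABA, 28.0, 21.4 and 28.6 in GAD67 and 0.256, 0.0329 and 0.121 in MEF. It was 127-fold lower in iGABA than in GAD67 (log2 fold change -6.99 ± 0.26, adjusted p = 2.75e-11), and iGABA and MEF overlapped (adjusted p = 0.371). Kcnh8 (ELK3) had 9.57, 11.8 and 10.4 normalised CPM in iGABA, 13.6, 12.2 and 15.3 in GAD67 and 0, 0.0658 and 0 in MEF. Its 2 MEF counts put iGABA 482-fold above MEF (95% counting interval 133 to 3985) and GAD67 622-fold above (172 to 5137). Between iGABA and GAD67 it differed by -0.37 on the log2 scale, within 2-fold by its 95% interval (-0.68 to -0.07), and that call was lost without iGABA replicate 4 (-0.30, adjusted p = 0.124), iGABA replicate 6 (-0.35, adjusted p = 0.0729) or GAD67 replicate 7 (-0.38, adjusted p = 0.0622), and with scaling by library size alone. Kcnh1 (EAG1) averaged 3.51 normalised CPM in iGABA, 4.66 in GAD67 and 0.646 in MEF. It was not called between iGABA and GAD67 (log2 difference -0.42, adjusted p = 0.0624), and was without GAD67 replicate 9 (-0.58, adjusted p = 0.00639). Kcnh5 (EAG2) averaged 1.07 normalised CPM in iGABA, 1.01 in GAD67 and 0.0210 in MEF, with iGABA and GAD67 not called apart.

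Kcnq genes encode the Kv7 pores, some of which carry the M-current, which muscarinic receptors close. The family sum was 102 ± 6.91 TPM in iGABA and 92.3 ± 3.43 TPM in GAD67, against 11.6 ± 1.29 TPM in MEF. Kcnq1 (Kv7.1; chr7:143107254-143427042, plus strand), the pore of the cardiac slow delayed rectifier, had 8.38, 6.35 and 9.91 normalised CPM in iGABA, 0.153, 0.0265 and 0.169 in GAD67 and 0, 0.0329 and 0.0604 in MEF. Only the iGABA libraries stood above 1, and Kcnq1 was 68.7-fold higher in iGABA than in GAD67 (log2 fold change 6.10 ± 0.35, adjusted p = 2.47e-09). The 3 counts of MEF put iGABA 244-fold above it (95% counting interval 83.3 to 1187). Kcnq3 (Kv7.3), an M-channel subunit of neurons, had 4.82, 5.78 and 5.03 normalised CPM in iGABA, 8.45, 6.997 and 6.41 in GAD67 and 0.183, 0.263 and 0.0604 in MEF. It was 30.9-fold higher in iGABA and 43.2-fold higher in GAD67 than in MEF. Between iGABA and GAD67 it differed by -0.48, within 2-fold (-0.84 to -0.12), a call lost without iGABA replicate 4 (-0.42, adjusted p = 0.0748), iGABA replicate 6 (-0.45, adjusted p = 0.0531) or GAD67 replicate 7 (-0.36, adjusted p = 0.0994), and with scaling by library size alone. Kcnq5 (Kv7.5) averaged 0.430 normalised CPM in iGABA, 4.11 in GAD67 and 8.63 in MEF, and was 20.0-fold lower in iGABA than in MEF.

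**Figure D3:**
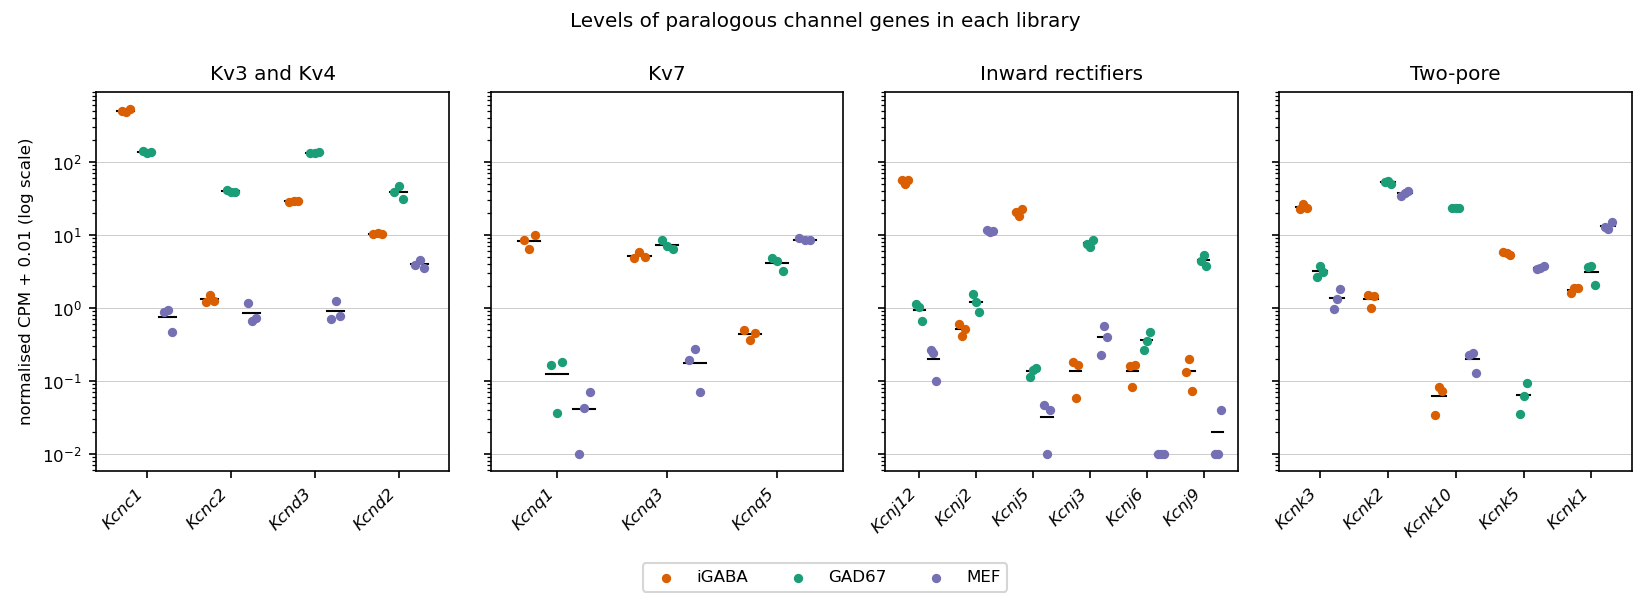
Normalised CPM plus 0.01 on a log axis for genes of the Kv3 and Kv4, Kv7, inward rectifier and two-pore families; each point is a library of iGABA, GAD67 or MEF (left to right for each gene) and the bar its group mean. Within Kv7, Kcnq1 was highest in iGABA and Kcnq3 low in MEF; within the two-pore genes, Kcnk3 was highest in iGABA and Kcnk2 and Kcnk10 in GAD67.

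Ion-activated channels followed several orders. Kcnt1 (Slack, KNa1.1; chr2:25863795-25918273, plus strand), a sodium-activated channel, had 314, 317 and 324 normalised CPM in iGABA, 33.7, 36.2 and 25.7 in GAD67 and 0.695, 0.526 and 0.694 in MEF. It was 496-fold higher in iGABA than in MEF (log2 fold change 8.95 ± 0.16, adjusted p = 3.98e-14) and 9.97-fold higher than in GAD67 (log2 fold change 3.32 ± 0.10, adjusted p = 4.81e-12), and it gave 99.5% of the Kcnt and Kcnu TPM in iGABA. Kcnt2 (Slick) had 0.594, 0.669 and 0.625 normalised CPM in iGABA, 2.86, 2.54 and 2.46 in GAD67 and 11.1, 12.2 and 11.1 in MEF, in the reverse order, and was 18.1-fold lower in iGABA than in MEF. Kcnu1 (Slo3), known from sperm, averaged 0.402 normalised CPM in iGABA, 3.95 in GAD67 and 0.241 in MEF, highest in GAD67.

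Kcnn genes encode the calcium-activated SK channels of the afterhyperpolarisation. Kcnn1 (SK1) had 61.4, 60.8 and 55.8 normalised CPM in iGABA, 32.5, 23.8 and 45.1 in GAD67 and 4.90, 4.08 and 3.93 in MEF, and was 13.8-fold higher in iGABA than in MEF (log2 fold change 3.79 ± 0.21, adjusted p = 1.42e-09). Kcnn2 (SK2) had 5.94, 6.78 and 5.85 normalised CPM in iGABA, 36.8, 32.4 and 36.7 in GAD67 and 2.89, 1.94 and 1.93 in MEF, and was 5.69-fold lower in iGABA than in GAD67 (log2 fold change -2.51 ± 0.12, adjusted p = 4.84e-10). Kcnn3 (SK3) averaged 15.4 normalised CPM in iGABA, 2.75 in GAD67 and 0.266 in MEF, and was 5.59-fold higher in iGABA than in GAD67 and 55.6-fold higher than in MEF. Kcnn1 and Kcnn3 were thus higher and Kcnn2 lower in iGABA than in GAD67. Kcnn4 (the intermediate-conductance channel of immune cells and fibroblasts) had 0.495, 0.358 and 0.2501 normalised CPM in iGABA, 0, 0.0265 and 0 in GAD67 and 3.51, 3.95 and 3.77 in MEF, and was 9.93-fold lower in iGABA than in MEF. It had 1 count in GAD67, which put GAD67 422-fold lower than MEF (95% counting interval 75.2 to 16700.4).

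The BK channel, opened by calcium and voltage together, has its pore in Kcnma1 and accessory subunits in the Kcnmb genes. Kcnma1 had 6.75, 5.13 and 7.22 normalised CPM in iGABA, 10.8, 11.2 and 7.26 in GAD67 and 5.09, 6.48 and 4.53 in MEF, and iGABA and MEF overlapped (adjusted p = 0.268; scaled by library size alone, log2 difference 0.66, adjusted p = 0.00957). Its neuronal subunits did part the groups. Kcnmb4 (β4; chr10:116417861-116473878, minus strand) had 0.124, 0.0478 and 0.188 normalised CPM in iGABA, 25.03, 27.4 and 21.3 in GAD67 and 2.96, 3.75 and 3.89 in MEF, 209-fold lower in iGABA than in GAD67 (log2 fold change -7.71 ± 0.24, adjusted p = 6.34e-12) and 30.2-fold lower than in MEF. Antisense genes share 31.5% of the Kcnmb4 exon bases, the strand setting of the counting is not given in the sources used here, and the larger of them, Kcnmb4os2, averaged 0.00796 normalised CPM in iGABA, 6.02 in GAD67 and 0.0915 in MEF. Kcnmb2 (β2), which inactivates the channel, had 1.11, 0.764 and 0.688 normalised CPM in iGABA, 6.31, 5.94 and 7.85 in GAD67 and 0, 0 and 0 in MEF. With 0 counts in MEF it was at least 26.2-fold above MEF in iGABA and at least 202-fold above it in GAD67, and 7.73-fold lower in iGABA than in GAD67.

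Of 11 tested inward rectifiers, 5 were higher and 5 lower in iGABA than in GAD67, near the shares over all genes of 41.3% higher and 39.3% lower. The Kir2 genes Kcnj2, Kcnj12, Kcnj4 and Kcnj14 encode strong rectifiers that hold the resting voltage. Kcnj12 (Kir2.2; chr11:61022564-61071131, plus strand), of which the window before an internal start is shown above, had 56.0, 50.4 and 55.9 normalised CPM in iGABA, 1.12, 1.01 and 0.649 in GAD67 and 0.256, 0.230 and 0.0906 in MEF. It was 283-fold higher in iGABA than in MEF (log2 fold change 8.15 ± 0.20, adjusted p = 5.48e-13) and 57.7-fold higher than in GAD67 (log2 fold change 5.85 ± 0.15, adjusted p = 9.36e-13). Kcnj2 (Kir2.1) was the fibroblast member, with 0.594, 0.406 and 0.500 normalised CPM in iGABA, 1.56, 1.19 and 0.875 in GAD67 and 11.7, 10.9 and 11.5 in MEF, and was 22.6-fold lower in iGABA than in MEF (log2 fold change -4.50 ± 0.21, adjusted p = 2.57e-10). The Kir2 genes thus had Kcnj12 as the highest in iGABA and Kcnj2 as the highest in MEF. Kcnj4 (Kir2.3) averaged 2.67 normalised CPM in iGABA, 0.122 in GAD67 and 3.42 in MEF, and in GAD67 it was 26.8-fold lower than in MEF (-5.35 on the log2 scale without GAD67 replicate 8, against -4.74).

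Kir3 channels (GIRK), opened by G proteins downstream of GABA-B and other receptors, are built from the products of Kcnj3, Kcnj5, Kcnj6 and Kcnj9. Kcnj5 (GIRK4; chr9:32314783-32344237, minus strand), known from the heart atrium and adrenal cortex, had 20.8, 17.9 and 22.4 normalised CPM in iGABA, 0.102, 0.133 and 0.141 in GAD67 and 0.0366, 0 and 0.0302 in MEF. It was 159-fold higher in iGABA than in GAD67 (log2 fold change 7.31 ± 0.21, adjusted p = 2.45e-12), and the 2 counts in MEF put iGABA 916-fold above it (95% counting interval 253 to 7571). The neuronal subunits went the other way. Kcnj3 (GIRK1; chr2:55435970-55598145, plus strand) had 0.173, 0.0478 and 0.156 normalised CPM in iGABA, 7.46, 6.89 and 8.53 in GAD67 and 0.220, 0.559 and 0.393 in MEF, and was 60.4-fold lower in iGABA than in GAD67 (log2 fold change -5.92 ± 0.31, adjusted p = 9.39e-10). Kcnj9 (GIRK3) had 0.124, 0.191 and 0.0625 normalised CPM in iGABA, 4.44, 5.35 and 3.75 in GAD67 and 0, 0 and 0.0302 in MEF, and was 33.7-fold lower in iGABA than in GAD67 (log2 fold change -5.07 ± 0.32, adjusted p = 6.32e-09). Kcnj6 (GIRK2) was not tested, with 14 counts in iGABA, 39 in GAD67 and 0 in MEF. In mammals GIRK4 usually works together with GIRK1, and Kcnj3 averaged 0.126 normalised CPM in iGABA.

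KATP channels join a Kir6 pore to a sulfonylurea receptor. Kcnj11 (Kir6.2; chr7:46098725-46099897, minus strand), the pore of neurons and beta cells, had 4.30, 4.27 and 4.53 normalised CPM in iGABA, 1.99, 2.17 and 1.67 in GAD67 and 0, 0.0329 and 0.0302 in MEF. It was 2.24-fold higher in iGABA than in GAD67 (log2 fold change 1.16 ± 0.17, adjusted p = 2.54e-05), and the 2 MEF counts put iGABA 198-fold above MEF (95% counting interval 54.5 to 1639). Its receptor Abcc8 (SUR1) averaged 4.43 normalised CPM in iGABA, 4.01 in GAD67 and 0.147 in MEF and was higher in iGABA than in MEF (log2 fold change 4.81). Kcnj8 (Kir6.1), the pore of vascular muscle and pericytes, had 0.0247, 0.0716 and 0.0313 normalised CPM in iGABA, 0.945, 0.398 and 2.03 in GAD67 and 4.32, 3.82 and 4.50 in MEF. Within GAD67 it was highest in replicate 9, and the log2 fold change of GAD67 over MEF was -1.92 with that library and -2.62 without it. The summed endothelial markers were also highest in that GAD67 library, with 2.01 to 4.66 normalised CPM in iGABA, 11.7 to 40.6 in GAD67 and 13.8 to 16.3 in MEF. Its receptor Abcc9 (SUR2) averaged 0.187 normalised CPM in iGABA, 3.49 in GAD67 and 22.8 in MEF. The summed level of 6 mural cell markers was 44.5 to 57.6 normalised CPM in iGABA, 12.03 to 36.1 in GAD67 and 796 to 842 in MEF. Like Kcnj8 this sum was highest in MEF and, within GAD67, in replicate 9. Unlike Kcnj8 it was higher in iGABA than in GAD67. Of the 6 mural markers, 4 were higher and 1 lower in iGABA than in GAD67. Rgs5 averaged 1.09 normalised CPM in iGABA and 12.5 in GAD67, the direction of Kcnj8. The part of either list in the Kcnj8 differences was not tested. Kcnj15 (Kir4.2), known from kidney, had 1.71, 1.81 and 1.75 normalised CPM in iGABA, 0.0255, 0 and 0 in GAD67 and 6.15, 7.14 and 8.001 in MEF, and the single GAD67 count put iGABA 198-fold above GAD67 (95% counting interval 35.05 to 7839).

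Two-pore channels carry the background leak that sets the resting potential. Of 9 tested, 5 were higher and 4 lower in iGABA than in GAD67 (all genes 41.3% and 39.3%), and 3 were higher and 5 lower in iGABA than in MEF (all genes 42.1% and 39.7%), counts that lie near those shares for so few genes. Kcnk3 (TASK-1; chr5:30588170-30625270, plus strand), an acid-sensitive leak, had 22.7, 26.2 and 23.6 normalised CPM in iGABA, 2.60, 3.76 and 3.11 in GAD67 and 0.952, 1.32 and 1.78 in MEF. It was 17.6-fold higher in iGABA than in MEF (log2 fold change 4.14 ± 0.19, adjusted p = 2.06e-10) and 7.65-fold higher than in GAD67. Kcnk9 (TASK-3) followed at low level, with 0.346, 0.621 and 0.500 normalised CPM in iGABA, 0.102, 0.106 and 0.113 in GAD67 and 0, 0 and 0 in MEF. With 0 MEF counts it was at least 14.8-fold higher in iGABA than in MEF. Kcnk5 (TASK-2) had 5.79, 5.59 and 5.31 normalised CPM in iGABA, 0.0255, 0.0530 and 0.0847 in GAD67 and 3.37, 3.49 and 3.77 in MEF, and was 97.7-fold higher in iGABA than in GAD67 (log2 fold change 6.61 ± 0.26, adjusted p = 5.39e-11).

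The stretch- and lipid-sensitive TREK genes went the other way. Kcnk2 (TREK-1; chr1:189207931-189343832, minus strand) had 1.51, 0.979 and 1.47 normalised CPM in iGABA, 52.6, 55.0 and 49.8 in GAD67 and 34.1, 37.6 and 39.6 in MEF. GAD67 was 1.41-fold higher than MEF, with no overlap between their libraries. The iGABA level was 40.0-fold lower than GAD67 (log2 fold change -5.32 ± 0.12, adjusted p = 3.47e-13) and 28.3-fold lower than MEF. Kcnk10 (TREK-2; chr12:98433994-98577940, minus strand) had 0.0247, 0.0716 and 0.0625 normalised CPM in iGABA, 23.6, 23.7 and 23.5 in GAD67 and 0.220, 0.230 and 0.121 in MEF. It was 421-fold lower in iGABA than in GAD67 (log2 fold change -8.72 ± 0.21, adjusted p = 4.27e-13) and 124-fold higher in GAD67 than in MEF. Per length the TREK pair stood at 1.11 and 0.0682 TPM in iGABA, against 44.8 and 30.9 TPM in GAD67.

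Fibroblast-side two-pore genes were Kcnk1 (TWIK-1) and Kcnk6 (TWIK-2). Kcnk1 averaged 1.77 normalised CPM in iGABA, 3.11 in GAD67 and 13.4 in MEF, and was 7.58-fold lower in iGABA than in MEF. Kcnk6, described in vascular and immune cells, averaged 0.383 normalised CPM in iGABA, 0.0999 in GAD67 and 11.4 in MEF, and was 29.0-fold lower in iGABA than in MEF. Kcnk13 (THIK-1), the leak channel of microglia, had 1 count in iGABA, 34 in GAD67 and 103 in MEF. All 8 macrophage and microglia markers were lower in iGABA and in GAD67 than in MEF, with sums of 0.313 to 0.445 normalised CPM in iGABA, 1.78 to 2.20 in GAD67 and 210 to 225 in MEF, and C1qa and Cx3cr1 at 0 counts in iGABA. Their part in the MEF levels of Kcnk13, Kcnk6 and Kcnn4 was not tested. Kcnrg, which encodes a soluble protein related to the Kv tetramerisation domain and no pore, had 0.618, 0.525 and 0.625 normalised CPM in iGABA, 4.06, 4.19 and 3.33 in GAD67 and 0.0366, 0.0658 and 0 in MEF, and was 6.54-fold lower in iGABA than in GAD67 (log2 fold change -2.71 ± 0.23, adjusted p = 1.34e-07).

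The members given last averaged at most 5.50 normalised CPM in any group. Kcnk12 (THIK-2) averaged 0.326 normalised CPM in iGABA, 0.116 in GAD67 and 0.273 in MEF and Kcna4 (Kv1.4) 0.736 normalised CPM in iGABA, 1.26 in GAD67 and 0.826 in MEF. Kcnip4 averaged 0.515 normalised CPM in iGABA, 0.132 in GAD67 and 1.23 in MEF, highest in the fibroblasts, and was 3.87-fold higher in iGABA than in GAD67. Of the silent subunits, Kcng1 (Kv6.1) averaged 0.142 normalised CPM in iGABA, 5.50 in GAD67 and 0.206 in MEF, Kcng2 (Kv6.2) 0.182 normalised CPM in iGABA, 0.187 in GAD67 and 0.653 in MEF and Kcng3 (Kv6.3) 0.00824 normalised CPM in iGABA, 0.487 in GAD67 and 0.306 in MEF. Kcng1 was lower in iGABA than in GAD67 (log2 fold change -5.18, adjusted p = 2.35e-07 in edgeR's test, and -7.48 without iGABA replicate 4). Kcnv1 (Kv8.1) had 13 counts in iGABA, 96 in GAD67 and 0 in MEF, and Kcne2 had 8 counts in iGABA, 80 in GAD67 and 0 in MEF. Kcnj10 (Kir4.1), the glial inward rectifier, averaged 0.949 normalised CPM in iGABA, 1.04 in GAD67 and 0.195 in MEF and was not called between iGABA and GAD67. Kcnh6 (ERG2) averaged 0.528 normalised CPM in iGABA, 0.993 in GAD67 and 0.0122 in MEF, and Kcnj14 (Kir2.4) 0.0640 normalised CPM in iGABA, 0.408 in GAD67 and 0.0887 in MEF. Of the genes too low to test, Kcnc4 (Kv3.4) had 10 counts in iGABA, 68 in GAD67 and 1 in MEF, and Kcnmb1 (β1), the smooth muscle BK subunit, had 1 in iGABA, 3 in GAD67 and 27 in MEF. The others (Kcna7, Kcne1, Kcne3, Kcng4, Kcnj13, Kcnj16, Kcnk4, Kcnk7, Kcnk15, Kcnk18 and Kcnv2) had at most 18 counts over all libraries.

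**Figure D4:**
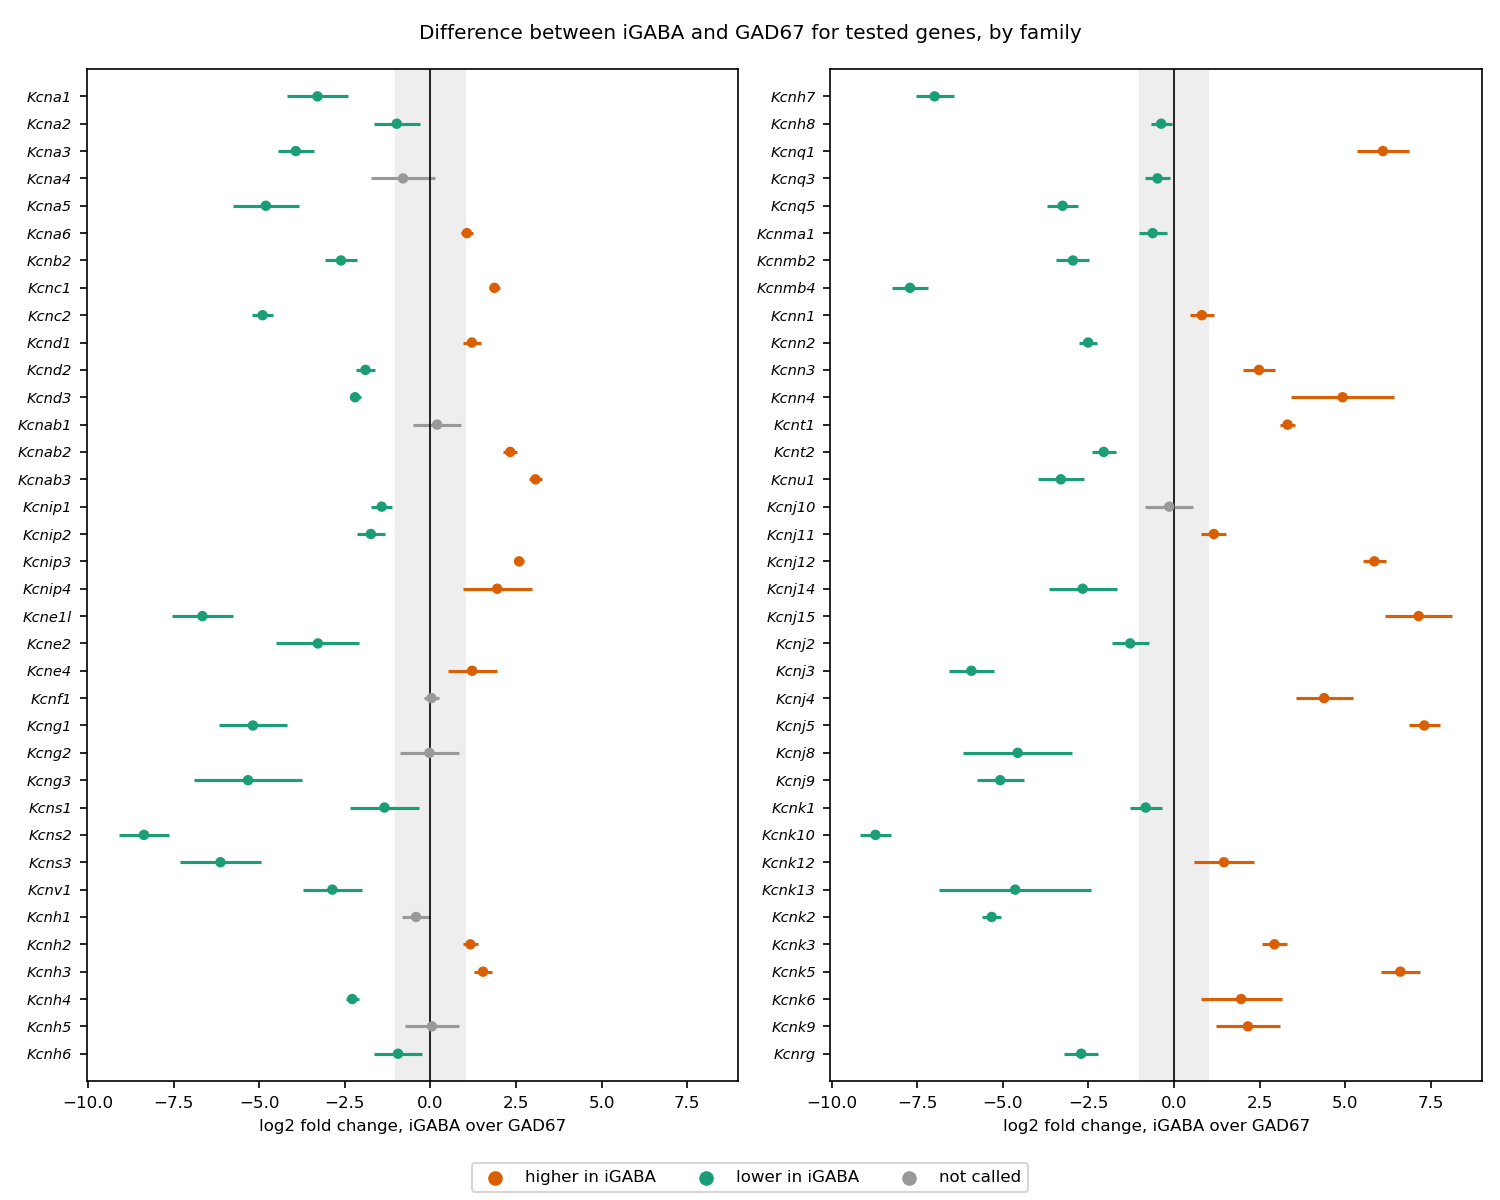
Log2 fold change of iGABA over GAD67 (horizontal axis) for 72 of the 76 tested genes, ordered by family; points are edgeR estimates, lines their 95% intervals, and the grey band spans 2-fold to either side of 0. Of the 72 genes plotted 25 were higher and 40 lower in iGABA, and 8 had intervals inside the band.

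Genes whose iGABA and GAD67 levels were shown to lie within 2-fold of each other were few. For 9 of the 76 the whole 95% interval lay within 2-fold (among them Kcnab1, Kcnf1, Kcnh5, Kcnh8, Kcnj10 and Kcnq3), where 39.0% of all tested genes met this. Kcnf1 was one of them, with 11.5 ± 0.581 normalised CPM in iGABA and 11.3 ± 0.816 in GAD67. With DESeq2 the number was 5.

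Partner proteins that are not named Kcn were read from a list of 38 genes, of which 35 were tested. Between iGABA and MEF 20 were higher and 11 lower (all genes 42.1% and 39.7%). Between GAD67 and MEF 22 were higher and 10 lower (all genes 43.1% and 43.8%), and between iGABA and GAD67 9 were higher and 21 lower (all genes 41.3% and 39.3%). The Kv4 partners Dpp6 and Dpp10, which speed Kv4 gating, averaged 6.20 normalised CPM in iGABA, 69.1 in GAD67 and 1.47 in MEF, and 3.90 normalised CPM in iGABA, 31.1 in GAD67 and 0.555 in MEF. Both were lower in iGABA than in GAD67, by 11.1-fold for Dpp6 (log2 fold change -3.47 ± 0.13, adjusted p = 2.68e-11) and 7.96-fold for Dpp10, the same direction as Kcnd2 and Kcnd3. Of the proteins that hold Kv1 at the axon, Cntn2 (TAG-1) averaged 1306 ± 146 normalised CPM in iGABA, 149 ± 0.691 in GAD67 and 4.13 ± 0.288 in MEF, and was 8.79-fold higher in iGABA than in GAD67 (log2 fold change 3.14 ± 0.08, adjusted p = 8.65e-13). Cntnap2 (Caspr2), its axonal partner, averaged 8.82 normalised CPM in iGABA, 45.9 in GAD67 and 0.267 in MEF, and was 5.20-fold lower in iGABA than in GAD67. The ankyrin genes Ank2 and Ank3, of which Ank3 encodes the anchor of Kv7 at the axon initial segment, were 3.58-fold and 3.42-fold lower in iGABA than in GAD67. Amigo1, an auxiliary subunit of Kv2 channels, averaged 95.5 normalised CPM in iGABA, 64.3 in GAD67 and 11.2 in MEF, and was 8.53-fold higher in iGABA than in MEF.

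Among genes that move potassium in other ways, the HCN cation channels oppose the leak at rest. Hcn2 averaged 63.5 normalised CPM in iGABA, 9.83 in GAD67 and 2.58 in MEF and was 6.45-fold higher in iGABA than in GAD67. Hcn4 averaged 1.35 normalised CPM in iGABA, 36.0 in GAD67 and 0.0942 in MEF and was 26.8-fold lower in iGABA than in GAD67 (log2 fold change -4.74 ± 0.17, adjusted p = 2.77e-11). A distinct set of markers, of neurons that contact the cerebrospinal fluid (Pkd2l1, Pkd1l2, Gata2 and Gata3), summed to 569 to 627 normalised CPM in iGABA, 0.664 to 1.06 in GAD67 and 9.37 to 10.8 in MEF, nearly all from Pkd2l1 at 549 ± 23.3 in iGABA. Against MEF the 4 did not move together. Gata2 averaged 49.4 normalised CPM in iGABA and 2.08 in MEF, but Gata3 averaged 0.459 in iGABA and 7.54 in MEF. Pkd1l2 had 1 count in iGABA and 9 in MEF. The part of this set in the iGABA levels of channel genes was not tested.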

How the data were processed

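The authors deposited 1 table of read counts per gene, with 37224 genes in rows and 9 libraries in columns. Per the labels' protocols, total RNA was made into dUTP-stranded libraries, and the submitters' processing notes name BWA 0.7.2, featureCounts, DESeq 1.10.1 and mm10. No source used here gives their settings, the annotation or the strand option of counting, so reads of overlapping genes may not have been kept apart. Symbols and gene types were taken from GENCODE vM21, which named 35449 genes (95.2%). Positions (mm10, the same build as GRCm38) and exon lengths are those deposited with the counts, so TPM and shared exon bases rest on the submitters' annotation.

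Genes were kept with edgeR's filterByExpr (minimum count 10, minimum total 15), scaled by TMM and tested with edgeR 4.0.16 (limma 3.58.1, R 4.3.3), by quasi-likelihood over all 9 libraries in 1 fit of 3 groups with no covariate, and p-values were adjusted by Benjamini-Hochberg over the 18085 genes tested. The code was run on simulated counts in which few genes changed, in a single group, with the same spread for every gene. Most genes were called in these data, so that run could not test the scaling or the spread here. Genes are named with a value in every library where they had, per comparison, 1 of the 10 largest called differences among genes with a mean of at least 1 normalised CPM and no overlap, or the highest mean TPM of their family in a group; others are given by means, except Kcnj3, Kcnj8, Kcnk9 and Kcnq3, given by library as well and chosen after their values were seen. Alternatives were DESeq2 size factors, library size alone, no filter, a filter of CPM at least 1 in 3 libraries, DESeq2 1.42.0, fits of only the groups compared, leaving out each library and, added after seeing the data, leaving out genes that share exon bases. The genes and lists were chosen with earlier results of these data known. The SE of a log2 fold change is not given by edgeR's test. It was derived as the absolute log2 fold change divided by the square root of the test's F statistic. The 95% intervals of log2 fold changes rest on this SE and on the degrees of freedom of the fit over all 9 libraries, so they are approximate. Counting intervals (95%, exact) and floors (3 counts) cover counting error only. A few genes are not reported here singly.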

Additional observations from a re-analysis of the deposited data

How the results depend on the processing

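The numbers of Kcn genes called in each comparison stayed within 1.5 times of those given under every alternative: 38 to 47 higher and 18 to 24 lower in iGABA than in MEF, 43 to 53 higher and 18 to 23 lower in GAD67 than in MEF, and 23 to 28 higher and 35 to 44 lower in iGABA than in GAD67. With library size alone, the split over all genes between iGABA and MEF became 9941 higher and 5283 lower, against 7618 and 7188 with TMM. The number of genes within 2-fold between iGABA and GAD67 was 9, 5 with DESeq2 and 6 to 9 with a library left out; the cause was not tested. The log2 differences that changed sign all belonged to genes not called in the main fit. For iGABA against MEF, 2 of these genes were called lower under other settings of edgeR's test. Kcng1 was called without iGABA replicate 4 (−2.78, adjusted p = 0.00641). Kcnj4 was called with only the 2 groups compared (−0.35, adjusted p = 0.0344) or without GAD67 replicate 9 (−0.36, adjusted p = 0.0391). With library size alone these were Kcna4 (0.24) and Kcnj4 (0.0574) for iGABA against MEF, and Kcng2 (0.16) and Kcnj10 (0.0541) for iGABA against GAD67. With single libraries left out they ranged over −0.53 to 0.34 for Kcna4 and −2.78 to 0.0641 for Kcng1 in iGABA against MEF, and over −0.0827 to 0.56 for Kcnab1, −0.0297 to 0.0849 for Kcnf1, −0.31 to 0.14 for Kcng2 and −0.38 to 0.41 for Kcnh5 in iGABA against GAD67. The cause was not tested. No paired analysis was possible because the groups share no replicate numbers. Depth limits genes with few counts: their ratios carry wide counting intervals, and the 18 untested genes cannot be compared.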
